A study of Mus musculus with 16 samples.

Results

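Brain RNA of neonatal mice that lack connexin 43 was set against brain RNA of neonatal mice that lack connexin 32. The comparison used 8 of the 16 arrays of the series, 4 labelled Cx43 null and 4 labelled Cx32 null, chosen by their titles. The other 8 arrays, 4 of wild type and 4 of Cx43 heterozygous brain, entered the fit for the spread and give the levels beside each difference. All mice are C57BL per the labels, and the wild type is named C57BL/6j. Each array was hybridised with Cy3-labelled brain cDNA and a Cy5-labelled reference. That reference was a single preparation from adult aorta, brain, heart, kidney, liver, lung, gonad, spleen and stomach, which all groups share. The labels give neither the postnatal day nor the construct of either null allele, and the number of animals behind a sample is not given in the sources used here. The p-values below therefore measure the spread between these samples, which may be technical. The Cx32 null titles leave out the age, and their descriptions call the mice neonatal.

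Connexins are the proteins of gap junctions: hexamers in facing membranes dock into channels that pass ions and small metabolites between cells. Connexin 43, encoded by Gja1, is the main connexin of astrocytes and is also made by radial glia, meninges and vascular cells. Connexin 32, encoded by Gjb1, is a connexin of oligodendrocytes and of myelinating Schwann cells, and its loss in people causes a peripheral neuropathy. The comparison of the null brains asks which transcripts differ between mice that lack an astrocyte connexin and mice that lack an oligodendrocyte connexin. Each genotype had its own 4 arrays. The loss of a connexin therefore cannot be told apart from other differences between the mouse lines or the sets of arrays.

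Each level below is a log2 ratio, likely of brain over reference, after each array was centred on its median, and each difference is Cx43 null minus Cx32 null on that scale. Spots with a value numbered 23218 to 24819 on the Cx43 null arrays and 21010 to 23144 on the Cx32 null arrays. The neuron markers had medians of 2.13 to 2.46 on the 8 arrays, and the markers of liver and other reference tissues had medians of -5.70 to -4.26. The Cx32 null arrays were alike: each correlated with the mean of the other Cx32 null arrays at r = 0.91 to 0.95 across transcripts, and with the wild-type mean at 0.77 to 0.78. The Cx43 null arrays were less so. Replicate 1 correlated at 0.91 with the wild-type mean, at 0.89 with the other Cx43 null arrays and at 0.86 with the Cx32 null mean. Replicate 4 correlated at 0.94 with the Cx32 null mean and at 0.93 with its own group, and replicate 3 at 0.70 with wild type. These arrays share the reference and the printed spots, and transcripts are not independent replicates, so the correlations are descriptions. The median SD of a transcript was 0.27 in Cx43 null, 0.21 in Cx32 null, 0.20 in heterozygous and 0.39 in wild-type brain.

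**Figure D1:**
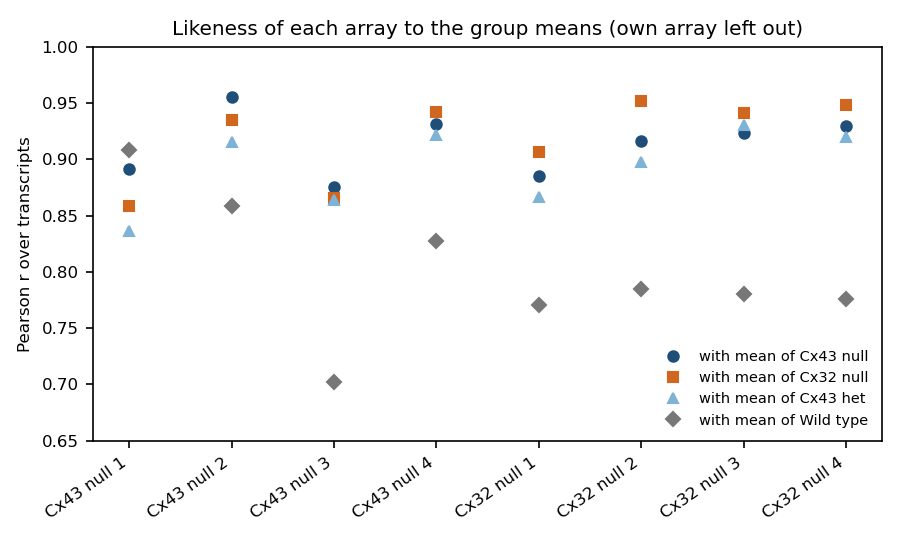
Pearson correlation (y axis) of each of the 8 null arrays (x axis) with the mean of each group over transcripts, the array itself left out of its own group; symbols mark the group mean. The wild-type diamond lies above the other symbols on Cx43 null replicate 1, at 0.91, and below them on the other 7 arrays.

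Gja1 was the check of the labels and the transcript of most interest. Its level in Cx43 null brain was -0.60, -1.71, -2.10 and -2.92, and in Cx32 null brain 0.13, 0.10, -0.07 and 0.27. Every Cx43 null array lay below every Cx32 null array, and the Cx43 null arrays were spread far more widely, with an SD of 0.96 against 0.14. The difference was -1.94 ± 0.37 (SE, 95% interval -2.72 to -1.16), a 3.84-fold lower mean, with a limma adjusted p of 0.0523 that missed the threshold of 0.05. The heterozygous level was -1.36 ± 0.34 (SD, n = 4) and the wild-type level 1.56 ± 0.63 (SD, n = 4). Gja1 in Cx32 null brain thus read 0.11 ± 0.14 (SD, n = 4), between the wild-type level and that of the mice with a Cx43 null allele. The heterozygous arrays ran from -1.86 to -1.09. Cx43 null replicate 1 lay above that range, replicate 2 within it and replicates 3 and 4 below it. As a check, Gja1 therefore did not separate null from heterozygous samples. The sources used here do not say which stretch of Gja1 was deleted or which stretch the spot matches, so the size of the reading does not measure what remained of the transcript.

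Replicate 1 of the Cx43 null group was the array with the highest Gja1. It also had the highest median over the 23 measured markers of astrocytes and radial glia, 0.90 against 0.25 to 0.36 on the other Cx43 null arrays and 0.11 to 0.36 on the Cx32 null arrays. Its part in the Gja1 spread was not tested. Without it the difference in Gja1 was -2.35 with an adjusted p of 0.0111, and without each other array in turn it stayed between -1.999 and -1.58 with an adjusted p of 0.0642 to 0.195. Over all alternatives the adjusted p ran from 0.00106 to 0.195, and Gja1 passed in 8 of 23.

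Other members of the family were sparsely measured. Panx1, a pannexin that forms large-pore channels in single membranes, read 1.96, 2.07, 1.69 and 2.44 in Cx43 null and 2.63, 2.63, 2.66 and 2.13 in Cx32 null brain. The groups overlapped, through the last Cx32 null array, and the difference of -0.47 ± 0.33 (SE) had an adjusted p of 0.767. The Panx1 level of the heterozygous group was 3.80 ± 0.76 (SD, n = 4), above both. Gjb5, a connexin known from skin and placenta, differed by -0.15 ± 0.24 (SE, adjusted p = 0.929). Gja4, a vascular connexin, had values on 3 Cx43 null arrays and on 0 Cx32 null arrays, and Gjc1, the connexin of vascular and embryonic cells, on 3 and 1, so neither was tested. No spot carries the name Gjb1, so the Cx32 null labels could not be checked against their own gene, and the genes of connexins 26, 30 and 40 (Gjb2, Gjb6 and Gja5) have no named spot either.

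Across the 14292 transcripts tested, 12 passed at an adjusted p under 0.05, which is 0.084%. Of these, 10 were higher (0.07%) and 2 lower (0.014%) in Cx43 null than in Cx32 null brain. Only 4 have a gene name: Hddc3 was lower in Cx43 null brain, and Pglyrp1, Tor3a and Evpl were higher.

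Hddc3 encodes an HD-domain hydrolase, also called MESH1, that cleaves the bacterial alarmone ppGpp and removes a phosphate from NADPH. It read 0.08, 0.16, 0.17 and -0.17 in Cx43 null and 1.05, 1.75, 2.14 and 2.08 in Cx32 null brain. The lowest Cx32 null array stood above the highest Cx43 null array by more than the whole Cx43 null range. Its level was -0.10 ± 0.17 in wild type and -0.11 ± 0.24 in heterozygous brain (SD, n = 4 each), so 3 groups lay together near the array median and the Cx32 null group alone was high. Hddc3 was 3.24-fold lower in Cx43 null than in Cx32 null brain, with a difference of -1.70 ± 0.22 (SE) and an adjusted p of 0.00294. It passed in 23 of 23 alternatives, with an adjusted p of at most 0.0301.

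Pglyrp1, a secreted peptidoglycan recognition protein of innate immunity, had the reverse pattern. It read -0.16, -0.19, 0.16 and -0.62 in Cx43 null and -1.05, -2.13, -1.20 and -2.09 in Cx32 null brain. Wild-type brain was at -0.18 ± 0.19 and heterozygous brain at -0.11 ± 0.24 (SD, n = 4 each), level with Cx43 null. Pglyrp1 was 2.67-fold higher in Cx43 null brain, with a difference of 1.42 ± 0.25 (SE, adjusted p = 0.0328). The call was lost on leaving out Cx32 null replicate 2 (adjusted p = 0.17) or 4 (0.108), or Cx43 null replicate 1 (0.109), 2 (0.065) or 3 (0.0957), and also with the 8 arrays fitted alone (0.0939).

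Tor3a, a torsin-family ATPase of the endoplasmic reticulum, read -1.20, -1.37, -0.75 and -1.21 in Cx43 null brain. On the Cx32 null arrays that gave a value, replicates 2 to 4, it read -2.21, -2.13 and -2.14. Wild-type brain was at -1.09 ± 0.05 (SD, n = 3) and heterozygous brain at -1.87 ± 0.17 (SD, n = 4). The difference was 1.03 ± 0.18 (SE), 2.04-fold, with an adjusted p of 0.0439. Without Cx43 null replicates 1, 2 or 3 the adjusted p was 0.109, 0.0549 or 0.0856, so that each loss ended the call, and it could not be refitted without Cx32 null replicates 2, 3 or 4. Tor3a passed in 9 of 19 alternatives: it was also lost with values as deposited (0.0857), quantile (0.0817) or cyclic loess scaling (0.0708), the median of spots (0.0507), robust eBayes (0.0745) and the 8 arrays alone (0.0917).

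Evpl encodes envoplakin, a plakin of desmosomes and of the cornified envelope. It read 0.00, -0.37, -0.47 and -0.31 in Cx43 null and -1.26, -1.15, -1.51 and -0.97 in Cx32 null brain, without overlap. Here wild type, at 0.06 ± 0.17, lay near Cx43 null, while heterozygous brain, at -1.001 ± 0.19 (SD, n = 4 each), lay near Cx32 null. The difference was 0.94 ± 0.17 (SE), 1.91-fold, with an adjusted p of 0.0439. It no longer passed without Cx43 null replicate 1 (adjusted p = 0.154), 2 (0.0786) or 3 (0.0587), or without Cx32 null replicate 1 (0.0915), 2 (0.17), 3 (0.0953) or 4 (0.0647). Evpl passed in 10 of 23 alternatives: it was also lost with values as deposited (0.0857), cyclic loess scaling (0.0571), all 4 values required (0.0577), the median of spots (0.0507) and the 8 arrays alone (0.0917).

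**Figure D2:**
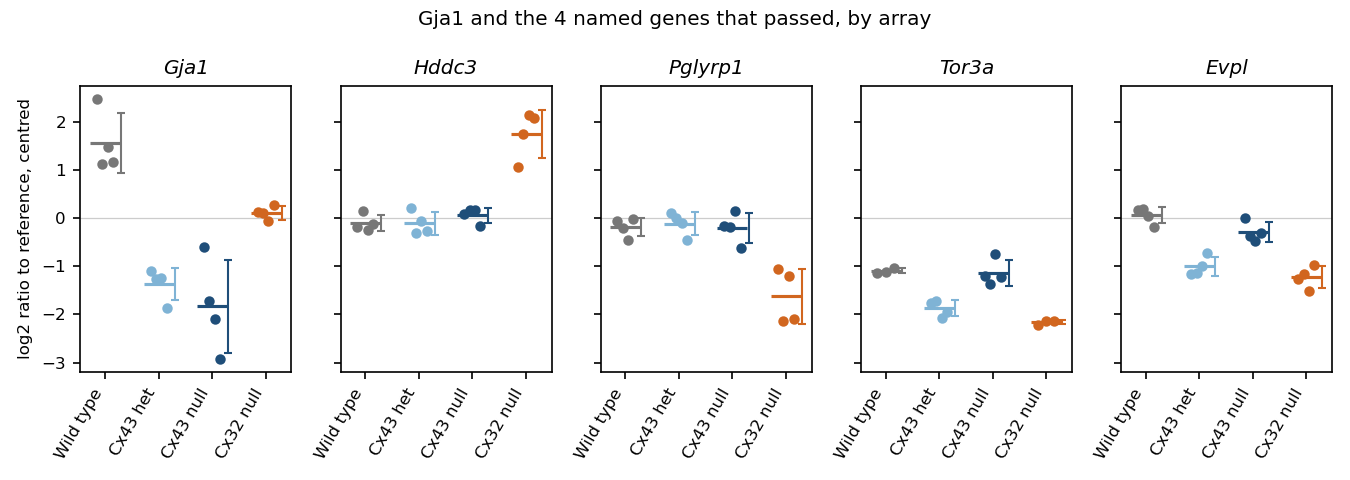
Median-centred log2 ratio to the reference (y axis) of Gja1 and of the 4 named genes that passed, by array (points) in the 4 groups (x axis); horizontal lines are means and the bars beside them 1 SD. The Cx32 null arrays stand apart from the Cx43 null arrays in all 5 panels, while the wild-type mean lies beside Cx43 null for Hddc3, Pglyrp1, Tor3a and Evpl and above both null groups for Gja1.

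The 8 passing transcripts without a single gene symbol included the one with the largest passing difference. Array feature 19718 read 1.91, 1.83, 2.48 and 1.97 in Cx43 null and -0.04, -1.72, -0.84 and -1.15 in Cx32 null brain. It was 7.92-fold higher in Cx43 null brain, with a difference of 2.99 ± 0.36 (SE, adjusted p = 0.00294). Wild-type brain, at 0.45 ± 0.54 (SD, n = 3), lay between the null groups, and heterozygous brain, at 2.83 ± 0.81 (SD, n = 3), lay above both. The 7 unnamed features higher in Cx43 null differed by 1.19 to 2.99, with adjusted p from 0.00294 to 0.0372. The single lower one, feature 20942, differed by -1.39 ± 0.21 (SE, adjusted p = 0.0144).

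Most transcripts differed little. The median difference was 0.01, the 5th and 95th percentiles were -0.43 and 0.58, and 190 transcripts (1.33%) differed by more than 1 in size. For 11953 transcripts (83.6%) the 95% interval of the difference lay within -1 to 1, so that a larger change than 2-fold was outside it. An unadjusted p under 0.05 was reached by 1303 transcripts (9.12%), 792 higher and 511 lower. The groups did not overlap in 1126 transcripts (7.88%): all Cx43 null arrays were above all Cx32 null arrays in 620 (4.34%) and below in 506 (3.54%).

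Leaving out an array changed the means or the spread and tightened the filter, which then required every remaining value of its group. Without 1 null array 12949 to 14111 transcripts were tested, and without wild-type replicate 1 13064. The number that passed depended on which arrays were used. It was 2, 3, 4, 4, 3 and 39 without Cx32 null replicate 2, Cx32 null replicate 4 and Cx43 null replicates 1, 2, 3 and 4 in that order, and 11 and 8 without Cx32 null replicates 1 and 3. With wild-type replicate 1 out of the fit, the array with the lowest median correlation with the other 15 (0.59, against 0.76 to 0.90), 63 transcripts passed, 42 higher and 21 lower, and these held all 12. With arrays weighted by their agreement 549 passed, 342 higher and 207 lower. The share of higher calls, 10 of 12, was 6 of 9 with values as deposited, 30 of 44 after quantile scaling and 14 of 22 after cyclic loess.

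**Figure D3:**
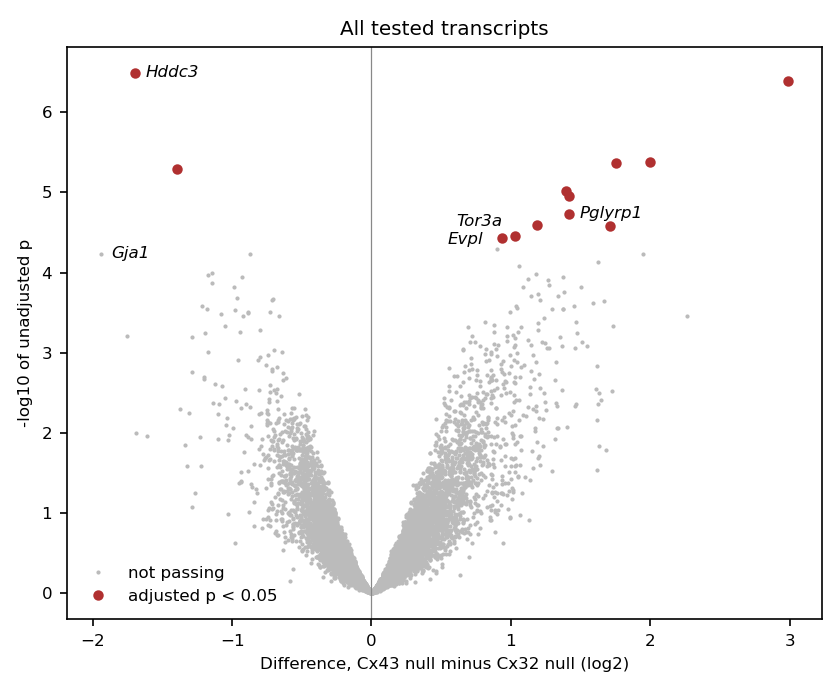
Difference between Cx43 null and Cx32 null brain (x axis, log2) against minus log10 of the unadjusted limma p (y axis) for the 14292 transcripts; red points are the 12 with an adjusted p under 0.05. Of the red points 10 lie to the right of 0, and Gja1 is the grey point farthest to the left.

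Beyond the 4 named genes that passed, the named genes with separated groups and an unadjusted p under 0.001 are given as values. They numbered 44 of the 8654 named genes tested, with those that passed, 26 higher and 18 lower in Cx43 null brain. On that p alone, without the demand for separated groups, 107 of all 14292 transcripts (0.749%) were called, unnamed spots included. The 12 largest on the higher side had differences of 1.05 to 2.26 and adjusted p of 0.0616 to 0.128, and the 14 on the lower side, Gja1 included, had differences of -1.94 to -0.87 and adjusted p of 0.0523 to 0.133. Apart from the 4, none passed.

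On the higher side, Myh14, the heavy chain of nonmuscle myosin II-C, had the largest difference. It read -0.19, -1.60, 0.63 and 0.49 in Cx43 null and -2.21, -2.64, -2.06 and -2.81 in Cx32 null brain, a difference of 2.26 ± 0.51 (SE, adjusted p = 0.0885). Its Cx43 null values spanned more than 2 log2 units, and its heterozygous values ran from -2.14 to 0.74. Ccn1, an immediate-early matricellular protein, read -0.75, -0.24, 0.00 and -1.70 in Cx43 null and -1.80, -2.82, -2.22 and -2.33 in Cx32 null brain. Its difference of 1.62 ± 0.32 (SE) had an adjusted p of 0.0616, and the wild-type mean of -0.45 lay on the Cx43 null side while the heterozygous mean of -1.98 lay on the Cx32 null side.

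Dek, a DNA-binding chromatin protein, read 2.04, 1.35, 1.14 and 1.22 in Cx43 null and 0.30, 0.26, 0.46 and 0.51 in Cx32 null brain. Its wild-type mean of 2.43 was above both null groups, and its difference was 1.05 ± 0.21 (SE, adjusted p = 0.0654). Cdt1, which licenses replication origins, read 1.00, 0.87, 0.90 and 0.75 in Cx43 null brain and -0.24, -0.57 and -0.38 on the 3 Cx32 null arrays with a value. The Cx43 null arrays were close together, and the difference was 1.28 ± 0.31 (SE, adjusted p = 0.128). Naa40, the N-terminal acetyltransferase of histones H2A and H4, read 0.65 to 1.66 in Cx43 null and -0.58 to 0.49 in Cx32 null brain (adjusted p = 0.0855).

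Dgke, diacylglycerol kinase epsilon, read 1.82, 1.30, 0.79 and 1.56 in Cx43 null and 0.06, 0.14, 0.45 and 0.24 in Cx32 null brain, a difference of 1.15 ± 0.25 (SE, adjusted p = 0.082). Ppip5k1, a kinase that makes inositol pyrophosphates, read 0.37, 0.38, 0.75 and 0.07 against -1.86, -1.73, -0.57 and -0.34, a difference of 1.51 ± 0.37 (SE, adjusted p = 0.122). In both genes the wild-type mean, 1.59 and 0.90, was above the Cx43 null mean. For Ppip5k1 wild-type replicate 1 read 2.10 and the other wild-type arrays 0.47 to 0.52. Bhmt, the betaine-homocysteine methyltransferase of liver, was far below the reference in both groups, at -4.97 to -4.75 in Cx43 null and -6.72 to -5.61 in Cx32 null brain. The remaining higher genes were Tbata (1.46), Klhdc1 (1.26), 1700086P04Rik (1.73) and 1600014C10Rik (1.55), given with their differences.

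Besides Gja1, the lower side held 2 transporters. Slc7a11, the cystine-glutamate exchanger of astrocytes and other cells, read -0.14, 0.11, -0.80 and 0.23 in Cx43 null and 0.76, 0.94, 1.30 and 0.98 in Cx32 null brain. Its wild-type mean of 0.39 lay between them and its heterozygous mean of 1.00 lay with Cx32 null, and the difference was -1.15 ± 0.22 (SE, adjusted p = 0.071). Slc40a1, the iron exporter ferroportin, read -2.02, -1.30, -1.73 and -1.46 against -0.77, -0.67, -0.69 and -0.70. The Cx32 null arrays were close together, the wild-type mean was -1.60, and the difference was -0.92 ± 0.21 (SE, adjusted p = 0.0885).

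Cdh18, a cadherin of the nervous system, read 1.32, 1.62, 1.99 and 1.86 in Cx43 null brain and 2.98, 2.52 and 3.44 on the 3 Cx32 null arrays with a value (difference -1.29 ± 0.30, SE, adjusted p = 0.114). Nexmif, a factor of neurite extension and migration, read 1.41, 1.47, 2.05 and 2.59 against 2.77, 3.49 and 2.90. For both genes the heterozygous mean, 3.08 and 3.43, was with Cx32 null and the wild-type mean, 1.18 and 1.07, was below the Cx43 null values. Cntrob, the centriole protein centrobin, differed by -1.20 ± 0.28 (SE, adjusted p = 0.109), on 3 arrays of each group. Ift43, a subunit of the intraflagellar transport complex of cilia, read -1.24, -1.05, -1.45 and -0.87 against -0.03, -0.16, -0.39 and -0.49 (difference -0.88 ± 0.20, SE, adjusted p = 0.086).

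Aplnr, the apelin receptor of vascular endothelium, read -0.83, -0.63, -1.26 and -0.32 in Cx43 null and 0.10, -0.16, 0.47 and 0.46 in Cx32 null brain. The wild-type mean was -0.76 and the heterozygous mean 1.03, and the difference was -0.98 ± 0.22 (SE, adjusted p = 0.086). Tfip11, a protein of spliceosome disassembly, came as close to the threshold as Gja1. It read -0.08, 0.12, 0.07 and 0.25 against 0.77, 1.08, 0.80 and 1.19, a difference of -0.87 ± 0.17 (SE, adjusted p = 0.0523). In the order of the spots, 1 of its spots lay in a block of 50 where at least 1 of the 8 arrays correlated poorly with the rest. Several genes of this group have more than 1 spot, and these had the same sign: -0.97 and -1.17 for Jrk, -1.20 and -0.66 for Fam32a, and -0.70 and -1.04 for Tfip11. The remaining lower genes were Cyp2f2 (-1.08), Gipc2 (-0.99) and Pdgfrl (-0.95), given with their differences.

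**Figure D4:**
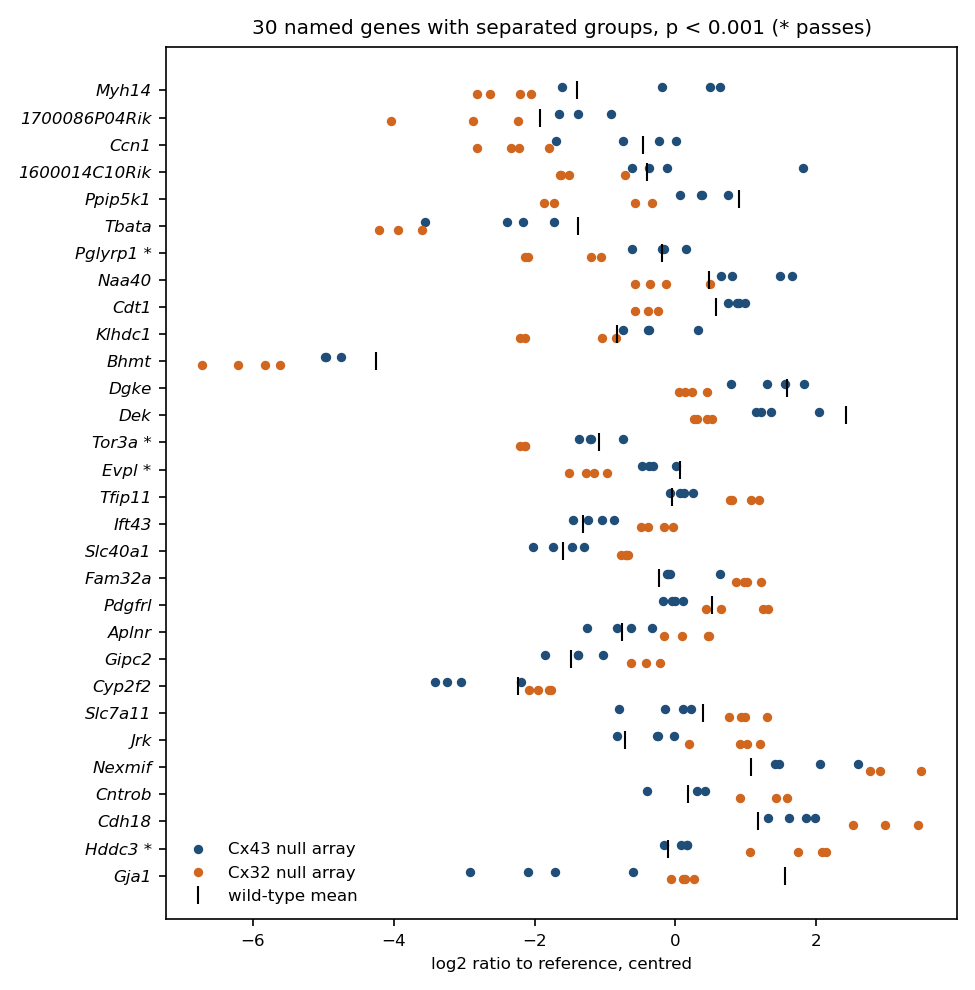
Median-centred log2 ratio to the reference (x axis) of the 30 named genes with the largest differences among those that passed or had separated groups and an unadjusted p under 0.001 (y axis), 1 point per Cx43 null or Cx32 null array and a bar at the wild-type mean; an asterisk marks the 4 with an adjusted p under 0.05. The wild-type bar lies nearer the Cx43 null mean than the Cx32 null mean in 25 of the 30 genes, a share that was not counted over all transcripts.

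The wild-type and heterozygous levels were set beside these differences without a test of their own. The wild-type mean was nearer to Cx43 null than to Cx32 null in 11 of the 12 transcripts that passed, in 25 of the 30 named genes, and in 858 of the 1126 transcripts whose null groups did not overlap. The heterozygous mean was nearer to Cx43 null in 8 of the 12 that passed and in 14 of the 30 named genes. Gja1 was an exception, with wild type nearer to Cx32 null. Neither count was made over all transcripts, so these shares do not set the chosen transcripts apart from the rest. As whole arrays, Cx43 null correlated with the wild-type mean at 0.70 to 0.91 and Cx32 null at 0.77 to 0.78.

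Of the 1186 genes measured in 36 lists of pathways and cell types, 0 passed with limma at an adjusted p under 0.05, where 0.084% of all transcripts did. An unadjusted p under 0.05 was reached by 109 of them, 9.19%, beside 9.12% of all transcripts. The list medians lay between -0.47, for the 3 connexins and pannexins, and 0.31, and 32 of 36 lay within -0.2 to 0.2. For comparison, 51.7% of all transcripts had a difference above 0. The genes named below are among the 2 with the smallest p of their list, or are well-known markers of a cell type, and are given as values.

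Among cell type markers, the neuron list was the single list whose 4 Cx43 null medians, 2.34 to 2.46, all lay above its 4 Cx32 null medians, 2.13 to 2.33. The median over the differences of its 22 genes was 0.01, and it ran from -0.08 to 0.14 over the alternatives. Among single transcripts, 4.34% were separated in this direction. Ina, the neuronal intermediate filament internexin, read 3.16, 2.78, 3.09 and 2.93 in Cx43 null and 2.21, 2.51, 2.15 and 2.45 in Cx32 null brain (difference 0.66 ± 0.18, SE, adjusted p = 0.17). Crmp1, a collapsin response mediator, differed by -0.58 ± 0.24 (SE, adjusted p = 0.468).

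Astrocyte and radial glia markers had a median difference of 0.08 over 23 genes, 17 above and 6 below 0. The glutamate transporter Slc1a3 was at 1.30 in Cx43 null and 1.28 in Cx32 null brain, a difference of 0.01 with a 95% interval of -0.87 to 0.90. Fabp7, the fatty acid binding protein of radial glia, had the highest level of the list, 4.38 against 4.05 (95% interval of the difference -0.20 to 0.87). Slc4a4, the sodium bicarbonate cotransporter, differed by 0.71 ± 0.28 (SE, adjusted p = 0.416). Gja1, itself a member, stood far from the other 22, whose differences ran from -0.49, for the metallothionein Mt2, to 0.78, for Ndrg2.

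Oligodendrocyte and Schwann cell markers, the cells of connexin 32, were measured in 7 genes only, with a median difference of -0.02. Mbp, myelin basic protein, was at -2.24 in Cx43 null and -2.45 in Cx32 null brain, below the reference with its adult brain share. Its difference of 0.21 had a 95% interval of -0.32 to 0.75. Pdgfra, the receptor of oligodendrocyte precursors, read 0.56, 0.70, -0.97 and 0.58 against 0.17, 0.82, 0.56 and 0.84, a difference of -0.38 ± 0.29 (SE, adjusted p = 0.797) with 1 Cx43 null array apart. Without that array, replicate 3, it was 0.014. In whole brain, fewer cells of a type and less RNA per cell cannot be told apart.

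Microglia and leukocyte markers had a median of 0.16 over 19 genes, 15 above and 4 below 0. The 2 with the smallest p were the transcription factor Irf8 (0.59 ± 0.20, SE, limma adjusted p = 0.3) and the Fc receptor Fcgr3 (0.74 ± 0.31, SE, adjusted p = 0.461). The null groups overlapped for both. The 4 below 0 were Tmem119 (-0.05), Itgam (-0.20), Itgb2 (-0.04) and H2-Aa (-0.46). In the endothelial list, median 0.15 over 10 genes, Aplnr and the glucose transporter Slc2a1 had differences of opposite sign. Slc2a1 read 0.53, 0.68, 1.05 and 0.07 in Cx43 null and -0.21, 0.03, -0.29 and -0.24 in Cx32 null brain (difference 0.76 ± 0.21, SE, adjusted p = 0.167). Medians were 0.09 for meninges, -0.12 for choroid plexus and ependyma, and 0.08 for red blood cells, whose anion exchanger Slc4a1 differed by 0.56 ± 0.17 (SE, adjusted p = 0.255).

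Skeletal muscle genes had the highest median of the 36 lists, 0.31 over 18 genes, 16 above 0, and markers of liver and other reference tissues 0.26 over 26 genes, 17 above 0. All 18 muscle genes were below the array median in both groups. The reference tissue list was at -0.16 with quantile and -0.12 with cyclic loess scaling, and to -0.09 without Cx32 null replicate 4, while the muscle list kept its sign over all alternatives, 0.20 to 0.40. The skin list was at 0.05 over 8 genes.

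Among junction genes, the connexin 43 partners, which bind or anchor the channel, had a median difference of 0.03 over 28 genes, 14 above and 14 below 0. Cav1, caveolin 1, read -0.79, -1.14, -1.05 and -1.66 in Cx43 null and -1.72, -1.46, -1.87 and -1.84 in Cx32 null brain (difference 0.57 ± 0.24, SE, adjusted p = 0.461). Tubb5, a tubulin of the kind the connexin 43 tail binds, differed by -0.36 ± 0.18 (SE, adjusted p = 0.609). Adherens and tight junction genes had a median of 0.05 over 33 genes. There Cldn3, a claudin, read -0.20, 0.28, -0.10 and -0.09 in Cx43 null brain and -0.55, -0.98 and -0.48 on 3 Cx32 null arrays (difference 0.65 ± 0.20, SE, adjusted p = 0.277).

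Neuronal signalling lists stayed near 0, with medians of 0.07 for synaptic vesicles, 0.08 for glutamate, 0.16 for GABA and glycine, 0.04 for ion channels and 0.08 for calcium and purine signalling. Atp6v0a1, a subunit of the vesicular proton pump, differed by 1.21 ± 0.35 (SE, adjusted p = 0.208), with Cx32 null values of -2.84 to -0.59. Calcium waves of astrocytes travel by gap junctions and by released ATP. Entpd2, an ectonucleotidase that degrades ATP, was the member of the purine list with the smallest p. It read 1.28, 0.35, 0.53 and 0.27 in Cx43 null and -0.41, -0.29, -0.19 and -0.13 in Cx32 null brain, with the highest value again on Cx43 null replicate 1 (difference 0.86 ± 0.25, SE, adjusted p = 0.224). Grin2d, an NMDA receptor subunit, differed by -0.71 ± 0.25 (SE, adjusted p = 0.355), Slc6a9, a glycine transporter, by -0.36 ± 0.20 (SE, adjusted p = 0.662), and the chloride-proton exchanger Clcn5 by -0.45 ± 0.17 (SE, adjusted p = 0.382).

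Developmental lists had medians of -0.10 for axon growth and guidance, 0.04 for developmental transcription factors and -0.04 for Wnt and Notch signalling. Sema4d, a semaphorin, read 0.08, 0.19, -0.16 and 0.41 against 0.59, 0.82, 0.66 and 0.60, without overlap (difference -0.54 ± 0.17, SE, adjusted p = 0.291). Notch1, the receptor that maintains neural progenitors, differed by -0.46 ± 0.18 (SE, adjusted p = 0.399), and Eomes, the factor of intermediate progenitors, by -0.57 ± 0.22 (SE, adjusted p = 0.408). Cell cycle genes had a median of -0.09, with 53 of 76 below 0, while Cdt1 and the replicative helicase subunit Mcm6 (0.83 ± 0.27, SE, adjusted p = 0.292), with the smallest p of the list, were above 0. The apoptosis list was at 0.02 over 34 genes.

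Glycolysis had the next highest median after muscle, 0.30 over 25 genes, with 20 above 0 and 8 with an unadjusted p under 0.05. Ldha, lactate dehydrogenase A, read 1.54, 0.17, -0.06 and -0.65 in Cx43 null and -1.02, -0.74, -0.94 and -1.10 in Cx32 null brain (difference 1.20 ± 0.39, SE, adjusted p = 0.292). The highest Cx43 null value was again that of replicate 1, and without that array the list's median was 0.11. Respiratory chain and ATP synthase genes, in contrast, had a median of -0.01 over 63 genes with 0 at an unadjusted p under 0.05, and lipid synthesis genes 0.02 over 24, where Srebf1, the regulator of fatty acid synthesis, differed by -0.60 ± 0.25 (SE, adjusted p = 0.454).

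Lists of protein and RNA handling had medians of 0.09 for cytosolic ribosomal proteins, 0.07 for translation factors, 0.14 for chaperones, 0.00 for the proteasome and for splicing, and -0.03 for chromatin regulators. Psmb3, a constitutive proteasome subunit, differed by 1.37 ± 0.40 (SE, adjusted p = 0.215), but by -0.013 without Cx43 null replicate 1, by 0.17 to 0.47 without Cx43 null replicates 3 or 4 or Cx32 null replicates 2, 3 or 4, and by 0.21 with all 4 values required. Leaving out an array also required every remaining value of its group, so the Psmb3 spots averaged could differ between settings. Fitted singly, its spots had a median difference of 1.76 and a highest limma adjusted p of 0.879. Psmb9, an interferon-induced subunit, differed by -1.04 ± 0.35 (SE, adjusted p = 0.303). The small heat shock proteins had differences of opposite sign, with Hspb6 at -0.73 ± 0.22 (SE, adjusted p = 0.244) and Hspb8 at 0.67 ± 0.21 (SE, adjusted p = 0.255). Eif5b, a factor of subunit joining, read 1.25, 0.97, 0.46 and 0.77 against 0.34, 0.14, 0.09 and 0.06 (difference 0.70 ± 0.19, SE, adjusted p = 0.167). The splicing factor Sf3b1 read 1.94, 1.27, 1.28 and 1.49 against 0.91, 0.88, 0.64 and 0.84 (difference 0.67 ± 0.18, SE, adjusted p = 0.159), with the wild-type mean of 2.65 above both.

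Cytoskeletal lists had medians of 0.15 for actin filaments and -0.03 for tubulins and motors, and the matrix list 0.05. Among motors, Kif1a, the carrier of synaptic vesicle precursors, read 0.89, 0.94, 2.45 and 2.46 in Cx43 null and 2.53, 2.91, 2.99 and 3.78 in Cx32 null brain. The Cx43 null arrays lay in pairs, and the difference was -1.37 ± 0.43 (SE, adjusted p = 0.258). Tuba1b, an alpha tubulin, differed by -1.20 ± 0.33 (SE, adjusted p = 0.182), and the fibronectin gene Fn1 by 0.50 ± 0.19 (SE, adjusted p = 0.394).

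**Figure D5:**
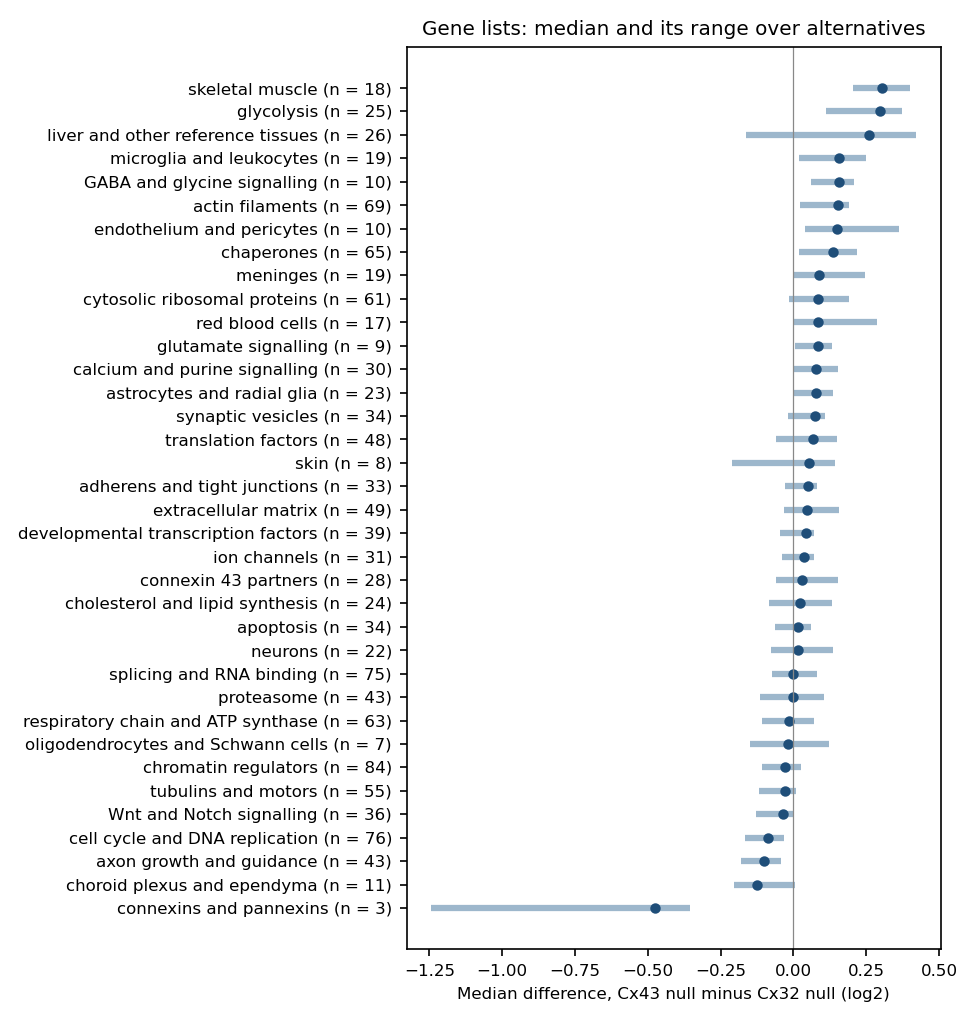
Median difference between Cx43 null and Cx32 null brain (x axis, log2) of the measured genes of each of the 36 lists (y axis, with the number of genes), as a point, and its range over the alternative settings, as a bar. The bars of most lists cross or touch 0, and the 3-gene connexin list is the lowest, with a point at -0.47.

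The genes that neighbour each deleted gene on its chromosome were also read. Of the 10 measured genes on each side of Gja1, 0 of 20 passed with limma, 1 had an unadjusted p under 0.05, and their differences ran from -0.44 to 0.88 with a smallest adjusted p of 0.392. Of the 20 around Gjb1, also 0 passed, 3 had an unadjusted p under 0.05, and differences ran from -0.57, for the kinesin Kif4, to 0.66, for Ogt, the O-GlcNAc transferase, with a smallest adjusted p of 0.3. The null groups did not overlap for 1 neighbour of Gja1 and 4 of Gjb1, where 7.88% of all transcripts did not.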

How the data were processed

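The deposited table holds, per the labels, log ratios of 2-colour cDNA arrays, read here as log2. Log base, numerator and within-array normalization are not given in the sources used here. The values are too wide for log10, but could be natural log, in which case each fold would be larger at the same direction and p-value. Intensities and spot flags were not used here, so signal over background is unknown, and 4 arrays per group limit the precision.

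Of 28704 spots, 18511 have 1 gene symbol, 937 several and 9256 none. Symbols were updated through gene identifiers (18267) or kept (244). Each array was centred on its median, spots with at least 3 of 4 values in each of the 4 groups were kept (19951), and spots of a gene were averaged. This gave 14292 transcripts, 8654 named and 5638 unnamed spots. A fit to all 16 arrays used limma 3.58.1 (lmFit, eBayes) in R 4.3.3, 2-sided, Benjamini-Hochberg adjusted over all transcripts, threshold 0.05. It was tested on simulated data. Where a sample has no value for a transcript, the fit drops it.

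Named genes were connexins, those that passed or had separated groups with unadjusted p under 0.001 (15 largest per direction), and up to 2 per list by p. The members, lists and rules were chosen with earlier results of these data known. The title was followed for wild-type replicate 3, whose channel label differs. Alternatives changed the scaling, filter, spot averaging, variance model and arrays, and the 2 added after seeing the data leave out wild-type replicate 1 or windows of 50 spots.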

Additional observations from a re-analysis of the deposited data

Results flagged for a closer look

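In 11 of 138 groups of 4 arrays tested, 1 array stood apart from the other 3 by Dixon's criterion. In independent, unselected and normally spread groups, chance alone would mark about 1 in 20. The groups here share arrays and include genes chosen by their values, so that rate is no yardstick for the 11. Among genes, Cx32 null replicate 4 was low for Panx1 (2.13, next 2.63) and high for 1600014C10Rik (-0.71, next -1.51), and Cx43 null replicate 4 was high for Fam32a (0.63, next -0.07). Among list medians, Cx43 null replicate 1 was high for astrocytes and radial glia (0.90) and for cytosolic ribosomal proteins (0.18), Cx43 null replicate 3 low for the proteasome (-0.28), and Cx43 null replicate 4 low for liver and other reference tissues (-4.90). Cx32 null replicate 1 was high for connexins and pannexins (1.38), where Gjb5 had no value. That median lay between Gja1 (0.13) and Panx1 (2.63), both within the range of the other Cx32 null arrays. Cx32 null replicate 3 was low for endothelium and pericytes (-0.58), and replicate 4 low for liver and other reference tissues (-5.70) and skeletal muscle (-2.19).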

How the results depend on the processing

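The count of 12 passing transcripts was 9 with values as deposited, 13 with the filter on the compared groups only, 10 with the median of spots and 11 with robust eBayes. It moved to 44 with quantile and 22 with cyclic loess scaling, 5 with all 4 values required, 22 with at least 2, 23 with each spot on its own, 7 with the 8 arrays fitted alone, 549 with array weights (0.12 for wild-type replicate 1 and 4.78 for Cx43 null replicate 2), 63 with wild-type replicate 1 out of the fit, and 2 to 39 leaving out 1 array. Gja1 passed with values as deposited (-2.02), quantile scaling (-1.95), at least 2 values and each spot on its own (both -1.94), array weights (-1.90) and wild-type replicate 1 out (-1.94), and ran from -2.35 to -1.58 leaving out 1 array. List genes that passed, 0 in the main setting, numbered 1 with values as deposited, at least 2 values, 8 arrays alone or wild-type replicate 1 out, 2 with quantile scaling or single spots, 48 with array weights, and 0 to 2 leaving out 1 array. Wild type was nearer Cx43 null in 11 of 12, and in 6 of the 6 that could be fitted with all 4 values required. Leaving out 1 array gave 8 to 11, counted over those of the 12 that could still be fitted. With the replicate block the Tor3a (0.178) and Evpl (0.0966) calls were lost. The deviations of same-numbered replicates correlated at r = 0.05, -0.09, 0.02 and 0.23. The highest r with another number was 0.02, 0.11, 0.06 and -0.03 in the same order. These few correlations cannot tell whether the numbers pair samples. With the replicate block 5 transcripts passed, Gja1 (-1.94) among them with an adjusted p of 0.0472, 1 list gene passed and wild type was nearer in 11. Of the other values, 2881 counted as the same. For genes this meant keeping direction and side of the threshold. For list medians it meant a shift within 1 pooled SD of the array medians, whatever the sign. The skin list, for example, ran from -0.21 to 0.14 and counted as the same throughout. Of the rest, 100 gene values came to pass, 74 ceased to pass, 19 list medians moved and 9 gene values changed sign. None of these 9 had passed: Snap23 (-0.053) and Slc32a1 (-0.070) with all 4 values required, and, leaving out 1 array, Slc32a1 (5 times, range -0.097 to 0.39), Psmb3 without Cx43 null replicate 1 (range -0.013 to 1.84) and Pdgfra without Cx43 null replicate 3 (range -0.54 to 0.014). The cause was not tested. Leaving out windows of 100 or 50 spots out of step left 12. Most of the 10 windows of 50 lay between spots 14501 and 14950 in the order of the spots. There Cx43 null replicate 2, and in most of them Cx32 null replicate 1, correlated poorly with the other null arrays.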

Other observations

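Which spots gave a value differed between the null groups. A value on all 4 Cx43 null arrays and on 0 Cx32 null arrays was found for 580 spots, 324 of them with a gene name, and the reverse for 1 spot. Of the 580, 443 also had at least 3 wild-type values, 135 had at least 3 heterozygous values and 267 had 0. They were scattered over the order of the spots, with at most 5 in each successive block of 50. Positions on the slide were not used. The labels do not say why a cell is empty, and these spots were not tested.

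With wild-type replicate 1 out of the fit, 29 named genes passed, 17 higher and 12 lower in Cx43 null brain. Besides genes described above they include, chosen after their values were seen, Bst2, an interferon-induced membrane protein (1.18 ± 0.21, SE, adjusted p = 0.0279), Ctla2b, a cysteine protease inhibitor (1.62 ± 0.30, SE, adjusted p = 0.0339), and Lpcat2, an acyltransferase of platelet-activating factor synthesis (1.02 ± 0.21, SE, adjusted p = 0.0441).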
